A study of Mus musculus with 4 samples.

Results

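The 6 genes described here, Wfs1, Fibcd1, Pou3f1, Mpped1, Man1a and Spink8, are markers of the pyramidal neurons of hippocampal field CA1, and they were taken by their gene symbols from a table of 19230 genes. All 6 were present in the table and all 6 passed the filter on low values, which asked that the 4 libraries average 1 FPKM or more. Messenger RNA was sequenced from the hippocampus of 12-month-old mice of the strain C57BL/6. The LA group, 2 libraries with the replicate numbers 1 and 2, came from mice treated for 30 days with licochalcone A (LA), a chalcone from licorice root. The Ctrl group, 2 libraries with the replicate numbers 2 and 3, carries a label that uses a term for cell culture, and neither what the Ctrl mice received nor the dose or route of LA is given in the sources used here. Strain and genotype are both given as C57BL/6 for all 4 libraries, with no altered allele named.

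The hippocampus is wired as a loop. Granule cells of the dentate gyrus project to the pyramidal neurons of CA3, these project to CA1, and CA1 is the main output of the loop to the subiculum and cortex, a path needed for memory of places and events. Pyramidal neurons of CA1, CA2 and CA3 all release glutamate and share most of their genes, so the fields are told apart by a small number of transcripts such as the 6 members. Several of the members are also expressed elsewhere in the brain, Man1a most widely, and none is exclusive to CA1.

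The members act at different places in the cell. Wfs1 codes for wolframin, a membrane protein of the endoplasmic reticulum that takes part in calcium handling and the response to unfolded proteins, and its loss causes Wolfram syndrome in humans. Man1a codes for a mannosidase of the Golgi apparatus that trims mannose from the sugar chains of new glycoproteins. Fibcd1 codes for a transmembrane receptor with a fibrinogen-like domain that binds acetylated sugars, and Spink8 for a secreted protein of the Kazal family of serine protease inhibitors. Pou3f1 codes for the POU-domain transcription factor also called Oct6 or SCIP, known for its role in myelinating Schwann cells. Mpped1 codes for a protein with a metallophosphoesterase domain whose function in neurons is not established.

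On GRCm38 in the GENCODE annotation, Mpped1 (gene identifier 223726) lies on chromosome 15 from 83779467 to 83858494 on the plus strand, with 11 transcripts, the longest 3281 bases in 7 exons. Spink8 (78709) lies on chromosome 9 from 109812280 to 109826633 on the plus strand, with 3 transcripts, the longest of which, 768 bases in 5 exons, is the shortest of its kind among the members. Wfs1 (22393) lies on chromosome 5 from 36966104 to 36989205 on the minus strand, with 3 transcripts, the longest 3787 bases in 8 exons. Pou3f1 (18991) is a gene of 1 exon on chromosome 4 from 124656807 to 124660655 on the plus strand, and it shares exonic bases with Gm2164 on the opposite strand. Fibcd1 (98970) lies on chromosome 2 from 31813290 to 31846005 on the minus strand, with 1 transcript of 4751 bases in 7 exons. Man1a (17155) lies on chromosome 10 from 53904785 to 54076609 on the minus strand, with 8 transcripts, the longest 5137 bases in 13 exons, and it shares exonic bases with Gm16998 on the opposite strand. Whether the libraries kept the strand is not given in the sources used here, so reads of Pou3f1 and of Man1a cannot be told apart from those of their antisense partners.

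Spink8 was the 1 member with a higher mean in LA than in Ctrl (below). Its gene has 2 complete coding sequences in the annotation, and the table gives 1 value for the gene. Spink8-201 has 95 codons, and Spink8-202, which has 1 coding exon more, has 105. Kazal domains are held together by pairs of cysteines, and the coding strand of each transcript is therefore shown 5′ to 3′ from its first cysteine codon, codon 44 in both, to its last codon, with cysteine codons in capitals (GRCm38, chromosome 9, plus strand, coding parts between 109816762 and 109826411 for Spink8-201 and between 109816762 and 109826398 for Spink8-202).
Spink8-201: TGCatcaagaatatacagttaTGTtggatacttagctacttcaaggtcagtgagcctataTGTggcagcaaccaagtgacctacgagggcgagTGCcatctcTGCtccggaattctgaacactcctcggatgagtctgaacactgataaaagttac
Spink8-202: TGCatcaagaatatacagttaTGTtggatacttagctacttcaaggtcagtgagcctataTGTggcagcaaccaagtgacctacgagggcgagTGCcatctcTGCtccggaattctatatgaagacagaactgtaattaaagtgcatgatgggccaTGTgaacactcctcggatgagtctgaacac
Spink8-201 holds 5 cysteine codons and Spink8-202 holds 6, the sixth lying in the stretch that Spink8-201 lacks. The shared bases after that stretch are read in different frames, so the last codons of the transcripts differ. Which of the transcripts the fragments came from cannot be read from the table.

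The promoters of 4 members, Wfs1, Fibcd1, Mpped1 and Man1a, were matched by symbol in a table of RefSeq promoters on GRCm38.p6, with 2 starts for Mpped1 and 1 for each of the others. The 250 bases before each start were used. Fibcd1 and Mpped1 are shown because their levels had the same order over the 4 libraries (below) while the base composition of the Fibcd1 promoter and the inner Mpped1 promoter differed. The outer Mpped1 promoter was rich in GC like that of Fibcd1, and which Mpped1 start was in use was not tested. CG dinucleotides, the sites of DNA methylation, are in capitals, and each is written 5′ to 3′ on the strand of its gene. The first is chr2:31846006-31846255 (minus strand), and the second, the inner of both Mpped1 starts, is chr15:83784579-83784828 (plus strand). Neither overlaps an exon of the GENCODE annotation, though the RefSeq gene of Fibcd1 reaches to 31846964, past the stretch shown.
Fibcd1: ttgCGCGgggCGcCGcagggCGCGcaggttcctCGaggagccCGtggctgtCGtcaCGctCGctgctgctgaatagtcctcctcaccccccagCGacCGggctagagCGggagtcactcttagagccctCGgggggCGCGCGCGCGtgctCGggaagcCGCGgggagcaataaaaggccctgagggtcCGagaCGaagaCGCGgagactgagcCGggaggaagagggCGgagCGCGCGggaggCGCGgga
Mpped1: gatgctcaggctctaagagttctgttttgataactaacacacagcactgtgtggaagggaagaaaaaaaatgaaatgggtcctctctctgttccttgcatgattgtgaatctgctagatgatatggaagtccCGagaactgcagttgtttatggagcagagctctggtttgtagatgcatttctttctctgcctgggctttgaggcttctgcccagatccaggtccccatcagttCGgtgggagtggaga
The Fibcd1 promoter held 34 CG dinucleotides at 71.6% GC, more GC than 92.7% of the 32851 promoters in the table. The inner Mpped1 promoter held 2 at 46.8% GC, and the outer one 47 at 88.8% GC, against a median of 6 and of 52.4% GC over all promoters. The octamer ATGCAAAT, which POU proteins such as the product of Pou3f1 can bind, was found on either strand in 0 of the 5 member promoters and in 1.6% of all promoters. A TATA box (TATAAA) was found in 0 of 5 and in 12.4% of all. The CCAAT box (CCAAT) was found in the promoters of Wfs1 and Man1a, 2 of 5, and in 33.8% of all. Both of these stretches, and that of the outer Mpped1 start, overlap an exon of the GENCODE annotation, so they are not wholly upstream of the gene. The endoplasmic reticulum stress element, a CCAAT followed at a fixed spacing by CCACG, was found in 0 of 5 and in 0.113% of all.

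FPKM, the unit of all levels below, is the number of fragments of a gene divided by its transcript length and by the mapped fragments of the library. Being set per length, it allows a rough comparison between genes. That comparison still depends on the transcript lengths assumed, which were not given in the sources used here. FPKM summed to 388932 and 441948 in the LA libraries and to 386945 and 394912 in the Ctrl libraries. The value that a single fragment adds to a gene was sought only in a preset window, from 0.055 to 0.075 FPKM times kilobases of transcript. It gave a relative depth of 93.0% and 94.9% in LA, against 100% and 98.9% in Ctrl. The narrow window forced these depths to be alike, so they do not show that the true depths were. At these depths the members rested on an estimated 357 to 4070 fragments in a library. Counting alone, with fragments taken as independent molecules, then gave an error of 1.57% to 5.29%. That was less than each member's spread over the libraries described below, but not less than every gap between single libraries. Whether each library came from a mouse of its own is stated nowhere in the labels, so the intervals and p-values below measure no more than how far these libraries lie apart, and that distance may be technical.

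Mpped1 was the most abundant member, at 63.4 ± 10.9 FPKM over the 4 libraries (SD, n = 4). Spink8 averaged 39.8 ± 8.72 FPKM, Wfs1 25.0 ± 5.10, Pou3f1 21.8 ± 2.25, Fibcd1 20.4 ± 5.38 and Man1a 17.4 ± 2.12 FPKM (SD, n = 4 each). The lowest Mpped1 value, 52.16 FPKM, lay above the highest Spink8 value, 50.71 FPKM. Every other pair of neighbours in this order overlapped in range. Members further apart could still be separate: the lowest Spink8 value, 29.38 FPKM, lay above the highest values of Pou3f1, Fibcd1 and Man1a, and the lowest Wfs1 value, 20.8 FPKM, above the highest Man1a value, 19.81 FPKM. Within a library the members stood between percentiles 70.4 and 95.3 of the genes.

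Mpped1 had 52.16 and 61.51 FPKM in LA replicates 1 and 2, against 78.33 and 61.44 FPKM in Ctrl replicates 2 and 3. The lowest and the highest value came from LA replicate 1 and Ctrl replicate 2, and the other 2 libraries were nearly equal, so the groups overlapped. The means were 56.8 ± 6.61 FPKM in LA and 69.9 ± 11.9 FPKM in Ctrl (SD, n = 2 each). The difference, LA minus Ctrl on the log2(FPKM + 1) scale used for all differences below, was −0.29 (standard error 0.18, 95% interval −0.71 to 0.14, adjusted p = 0.748 by limma), and the gap between the 2 Ctrl libraries, 0.35, was larger.

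Wfs1 had 20.8 and 24.49 FPKM in LA, against 32.3 and 22.4 FPKM in Ctrl. Ctrl replicate 2 stood above the other 3 libraries, and Ctrl replicate 3 fell between the LA libraries. The means were 22.6 ± 2.61 FPKM in LA and 27.4 ± 7.0 FPKM in Ctrl (SD, n = 2 each). The log2 difference was −0.24 (standard error 0.20, 95% interval −0.72 to 0.23, limma adjusted p = 0.818), less than the gap of 0.51 between the Ctrl libraries. It was 0.011 without Ctrl replicate 2.

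Pou3f1 was the steadiest member, with 19.04 and 23.12 FPKM in LA and 24.08 and 21 FPKM in Ctrl. Its highest value was 1.26 times its lowest, and the groups overlapped. The LA mean was 21.1 ± 2.89 FPKM and the Ctrl mean 22.5 ± 2.18 FPKM (SD, n = 2 each), a log2 difference of −0.10 (standard error 0.17, 95% interval −0.49 to 0.30, limma adjusted p = 0.934). Without LA replicate 1 the difference was 0.038.

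Fibcd1 varied most, with 13.87 and 24.42 FPKM in LA, against 25.17 and 18.08 FPKM in Ctrl. LA replicate 1 was the low library and LA replicate 2 was close to the higher Ctrl library. On the log2 scale its SD over the 4 libraries was larger than that of 90.5% of the 13518 genes tested. The means were 19.1 ± 7.46 FPKM in LA and 21.6 ± 5.01 FPKM in Ctrl (SD, n = 2 each). The log2 difference was −0.20 (standard error 0.28, 95% interval −0.85 to 0.44, limma adjusted p = 0.895), while the LA libraries lay 0.77 apart and the Ctrl libraries 0.46 apart. The difference was 0.19 without LA replicate 1 and 0.027 without Ctrl replicate 2.

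Man1a was the 1 member with both LA libraries below both Ctrl libraries, at 17.05 and 14.71 FPKM in LA and 17.94 and 19.81 FPKM in Ctrl. The margin between the groups was narrow beside the distance within them: the higher LA library and the lower Ctrl library differed by less than either group's own 2 libraries. The LA mean was 15.9 ± 1.65 FPKM and the Ctrl mean 18.9 ± 1.32 FPKM (SD, n = 2 each). The log2 difference was −0.24 (standard error 0.16, 95% interval −0.61 to 0.14, limma adjusted p = 0.767), and it stayed between −0.34 and −0.14 when any 1 library was left out. Both LA libraries lay below both Ctrl libraries for 21.0% of all genes tested.

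Spink8 was the 1 member that was higher in both LA libraries than in both Ctrl libraries, with 50.71 and 40 FPKM in LA, against 29.38 and 39.01 FPKM in Ctrl. LA replicate 2 and Ctrl replicate 3 were nearly equal, and the distance between the groups came from LA replicate 1 and Ctrl replicate 2. The estimated counting errors of LA replicate 2 and Ctrl replicate 3, 4.65% and 4.62%, were larger than the distance between them. Counting alone could thus have put these libraries in this order. The LA mean was 45.4 ± 7.57 FPKM and the Ctrl mean 34.2 ± 6.81 FPKM (SD, n = 2 each). The log2 difference, 0.40, was the largest of the members in size, with a standard error of 0.20, a 95% interval of −0.06 to 0.86 and an adjusted p of 0.690 by limma. It lay between 0.20 and 0.60 when any 1 library was left out. Both LA libraries lay above both Ctrl libraries for 17.6% of all genes tested.

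**Figure D1:**
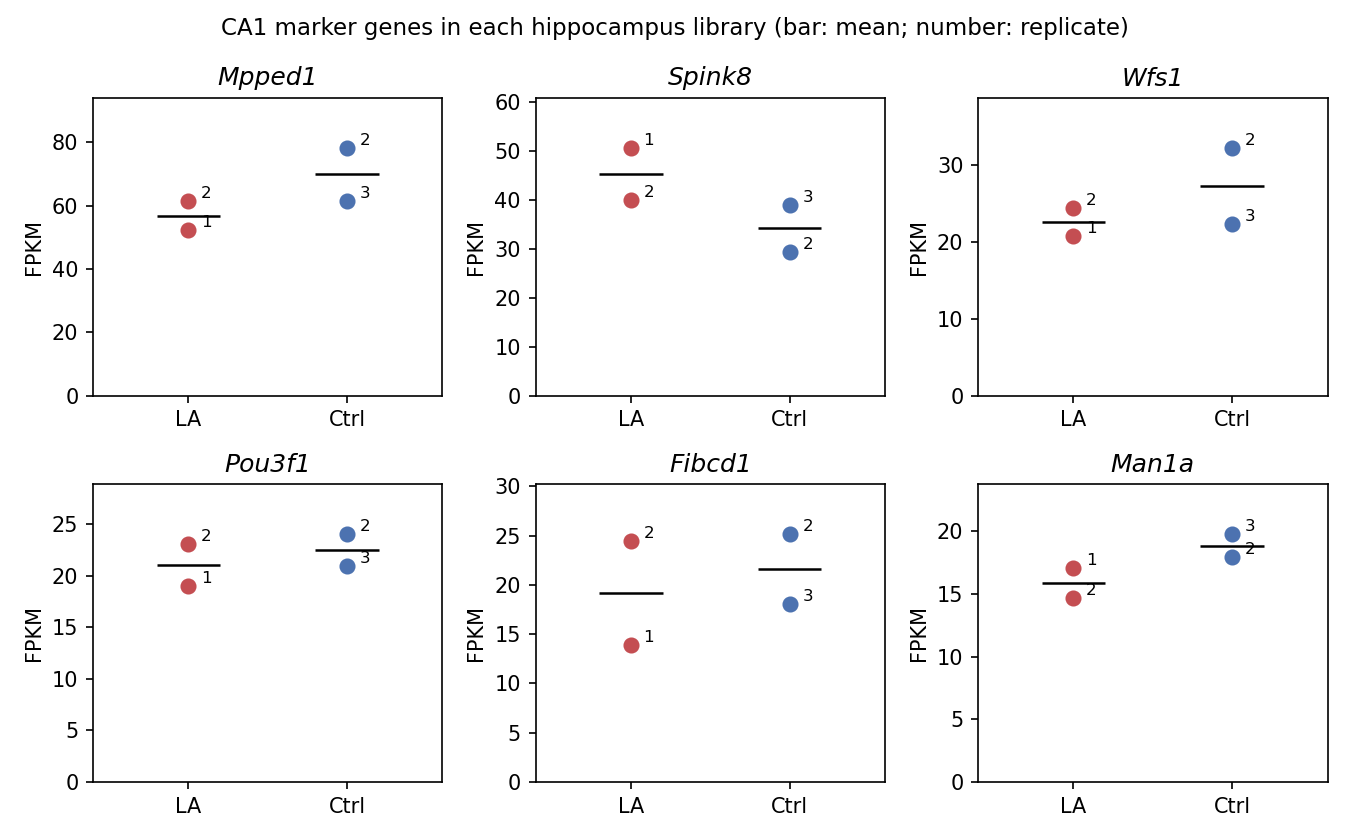
FPKM of the 6 CA1 markers (vertical axes, each from 0) in the 2 LA libraries and the 2 Ctrl libraries, with the replicate number beside each point and a bar at the group mean. The groups overlap for Mpped1, Wfs1, Pou3f1 and Fibcd1, both LA points lie above both Ctrl points for Spink8, and both lie below them for Man1a.

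Taken over the members, 0 of 6 passed the threshold of an adjusted p under 0.05 in limma, against 19 of 13518 genes tested (0.141%), all 19 of them lower in LA (0.141%) and 0 higher (0%). The number and direction of such calls changed when 1 library was left out, with 119 genes higher and 58 lower without LA replicate 1, and 36 higher and 191 lower without Ctrl replicate 2. At an unadjusted p under 0.05, 0 of 6 members passed, against 7.80% of all genes tested. The number of members past the adjusted threshold was 0 under every other setting tried as well, and without LA replicate 2 the unadjusted p was under 0.05 for 2 of 6 members and 1521 of 13518 genes tested. The log2 difference was negative for 5 members and positive for 1, with a median of −0.22, against −0.01 over all genes tested, of which 52.4% were negative. That median was 0.0048 without Ctrl replicate 2, −0.05 without LA replicate 1, −0.29 without LA replicate 2 and −0.31 without Ctrl replicate 3. With each library centred on the median level of genes common to pyramidal neurons, the median of the members was −0.07, against 0.14 over all genes tested. That centre was the level of a single one of these genes, Slc17a7, in every library. All genes thus moved alike, by the reverse of the difference of Slc17a7, −0.15. In 4 members, Mpped1, Wfs1, Pou3f1 and Fibcd1, the 2 libraries of at least 1 group lay further apart than the groups did. The intervals leave room for changes of a size that 2 libraries a group cannot resolve, so equal levels in LA and Ctrl were not shown either. In bulk tissue, fewer CA1 neurons and less RNA per CA1 neuron cannot be told apart.

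**Figure D2:**
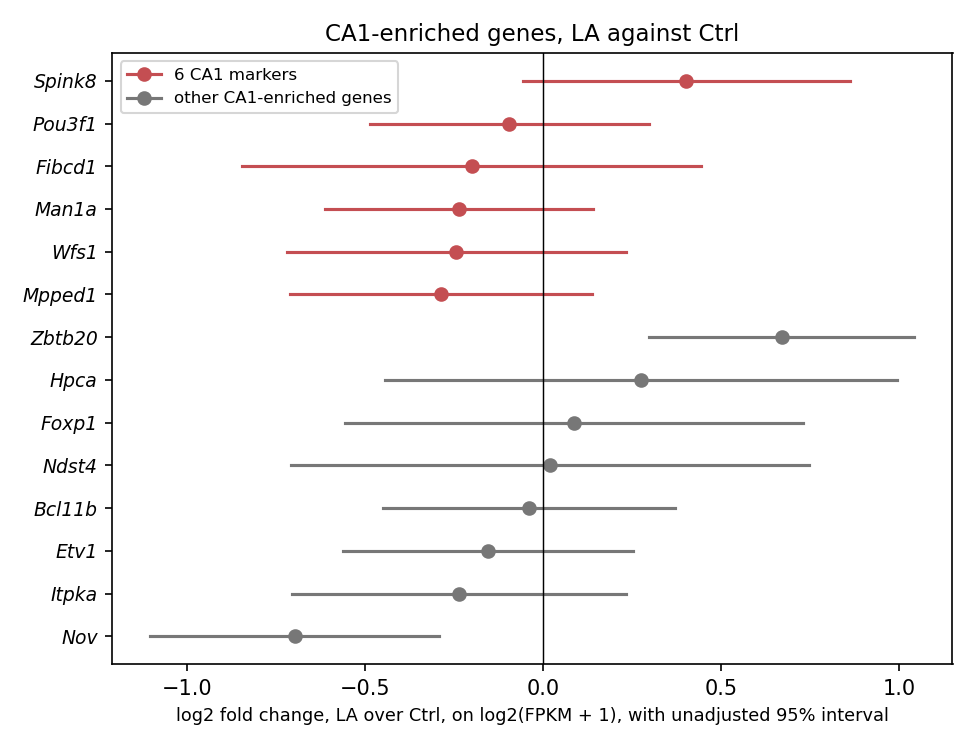
Log2 differences, LA minus Ctrl, on the log2(FPKM + 1) scale (horizontal axis) for the 6 CA1 markers and for 8 other genes enriched in CA1, with unadjusted 95% intervals as lines. All 6 marker intervals cross 0, with Spink8 at 0.40 and the other 5 between −0.29 and −0.10, and among the other genes the intervals of Zbtb20 and Nov do not cross it.

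Most members differed in the same way between single libraries. Mpped1, Wfs1, Pou3f1 and Fibcd1 had the same order of libraries, highest in Ctrl replicate 2, then LA replicate 2, then Ctrl replicate 3, and lowest in LA replicate 1. That order was found for 2.43% of all genes tested (329 of 13518). It was not particular to the CA1 markers. Slc17a7, a gene of all pyramidal neurons, had it, with 330.58 and 468.08 FPKM in LA, against 471.14 and 405.63 FPKM in Ctrl. Itpka, a gene of the list of others enriched in CA1, had it as well, and so did a pan-neuronal marker and Tbr1 of the neighbouring cortex list. Most other neuronal genes listed did not. Pan-neuronal markers also had their lowest median deviation, −0.19, in LA replicate 1. Spink8 ran in another order, highest in LA replicate 1, then LA replicate 2 and Ctrl replicate 3, and lowest in Ctrl replicate 2, an order shared by 2.6% of genes. Man1a, highest in Ctrl replicate 3 and lowest in LA replicate 2, had an order shared by 8.05% of genes. The median SD of the members over the 4 libraries was 0.25 on the log2 scale, against 0.19 over all genes tested.

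Ratios between members do not depend on the scaling of a library. Mpped1 to Wfs1 was nearly constant, at 2.51 and 2.51 in LA and 2.42 and 2.74 in Ctrl. Spink8 to Fibcd1 was 3.66 and 1.64 in LA, against 1.17 and 2.16 in Ctrl, and the groups overlapped. Spink8 to Wfs1 was 2.44 and 1.63 in LA, against 0.910 and 1.74 in Ctrl. The level of Spink8 relative to Fibcd1 and Wfs1 was thus highest in LA replicate 1 and lowest in Ctrl replicate 2, which follows from the orders given above. It was nearly equal in LA replicate 2 and Ctrl replicate 3 when set against Wfs1. Spink8 was not set against Man1a, the 1 member with both LA libraries below both Ctrl libraries.

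**Figure D3:**
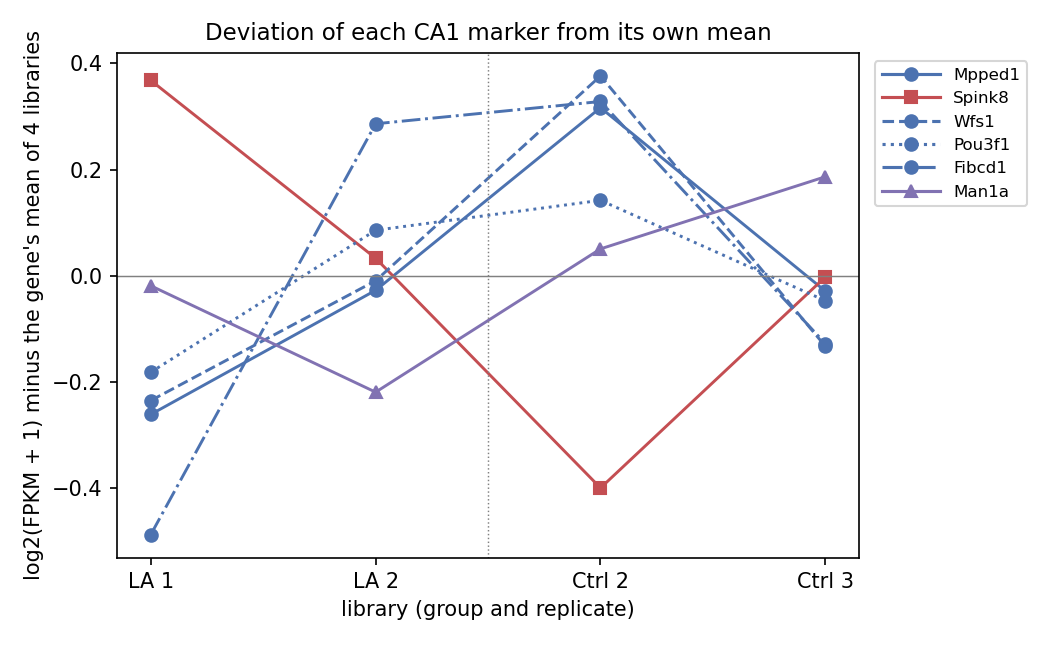
Log2(FPKM + 1) of each CA1 marker minus that gene's mean over the 4 libraries (vertical axis) in each library (horizontal axis, LA left of Ctrl), with 1 line per gene to join its points. Mpped1, Wfs1, Pou3f1 and Fibcd1 are lowest in LA replicate 1 and highest in Ctrl replicate 2, Spink8 is the reverse at those ends, and Man1a is lowest in LA replicate 2.

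The markers of the dentate gyrus, the other large neuronal field, also differed most between single libraries, in another pattern. The mean deviation of the 6 CA1 markers from their own means was −0.14 and 0.03 in LA, against 0.14 and −0.03 in Ctrl, on the log2 scale. For 7 dentate granule cell markers it was 0.43 and −0.42 in LA, against −0.06 and 0.05 in Ctrl. CA1 minus dentate was thus −0.57 in LA replicate 1 and 0.45 in LA replicate 2, with the Ctrl libraries between them at 0.19 and −0.07. In LA replicate 1, 5 of 6 CA1 markers were below their mean and 7 of 7 dentate markers above it. In LA replicate 2 it was 3 of 6 and 0 of 7. The most abundant of the 7 was C1ql2, a secreted protein of the synapses that granule cells make, with 28.57 and 23.21 FPKM in LA, against 28.64 and 22.42 FPKM in Ctrl. Stxbp6, the next, had 24.9 and 15.56 FPKM in LA, against 18.46 and 21.77 FPKM in Ctrl. Whether the dissected pieces held different shares of these fields was not tested.

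**Figure D4:**
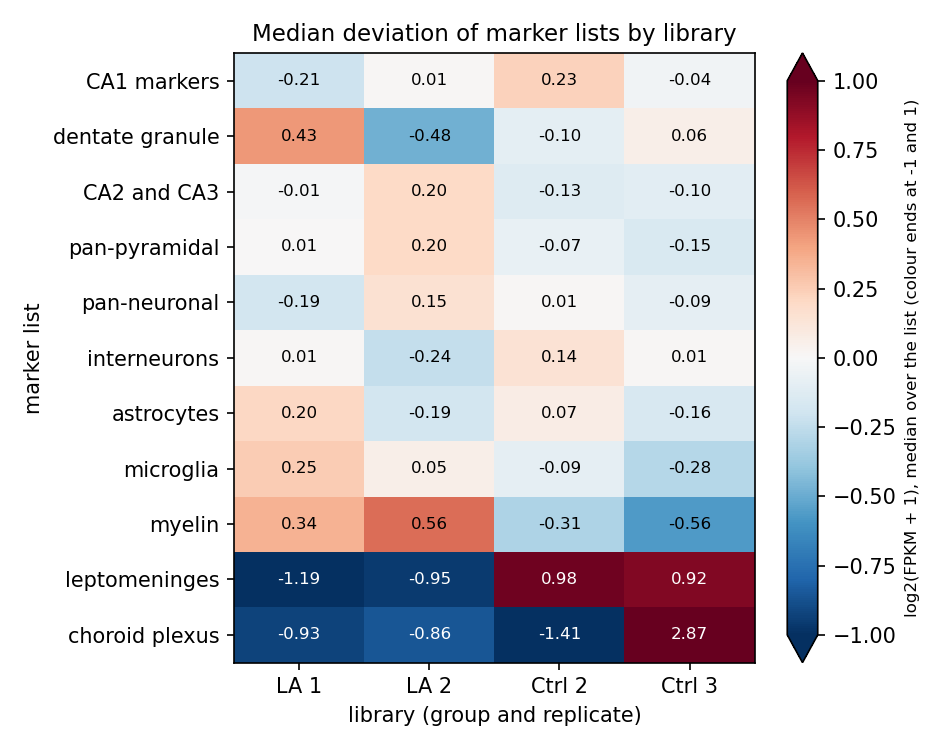
Median deviation from each gene's own mean, on the log2(FPKM + 1) scale, over marker lists (rows) in each library (columns, LA left of Ctrl), as a number and as a colour whose range ends at −1 and 1. The CA1 row runs from −0.21 in LA replicate 1 to 0.23 in Ctrl replicate 2, the dentate row from 0.43 in LA replicate 1 to −0.48 in LA replicate 2, and myelin and leptomeningeal rows separate LA from Ctrl.

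Among 8 other genes enriched in CA1, several of them shared with other hippocampal fields, 0 passed the limma threshold and 2 had an unadjusted p under 0.05, 4 were positive and 4 negative, and the median log2 difference was −0.01. The largest differences in this list ran in opposite directions. Nov, a secreted matricellular protein of the CCN family, had 50.28 and 51.71 FPKM in LA, against 94.48 and 73.47 FPKM in Ctrl, a log2 difference of −0.70 (95% interval −1.10 to −0.29, limma adjusted p = 0.392). Zbtb20, a transcription factor that specifies CA1 identity in the developing hippocampus, had 16.95 and 17.33 FPKM in LA, against 9.75 and 11.1 FPKM in Ctrl, a log2 difference of 0.67 (95% interval 0.30 to 1.04, limma adjusted p = 0.384). The groups did not overlap for either gene. Itpka, a kinase of inositol trisphosphate in dendritic spines, had 69.34 and 98.78 FPKM in LA, against 99.25 and 96.34 FPKM in Ctrl, and like Fibcd1 it was low in LA replicate 1. Hpca, the calcium sensor hippocalcin, had 658.01 and 1050 FPKM in LA, against 668.25 and 706.35 FPKM in Ctrl. Etv1, Foxp1, Bcl11b and Ndst4 lay between −0.16 and 0.09.

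The lists for CA2 and CA3, for all pyramidal neurons and for the ventral hippocampus held 0 genes past the limma threshold, and 2, 0 and 1 genes at an unadjusted p under 0.05. Of 11 markers of CA2 and CA3, 7 were positive and 4 negative with a median log2 difference of 0.23, against −0.22 for the CA1 markers. Pcp4, a calmodulin regulator expressed in CA2, had 189.19 and 205.01 FPKM in LA, against 121.1 and 144.02 FPKM in Ctrl (log2 difference 0.57, limma adjusted p = 0.538). Rgs14, which limits plasticity in CA2, was at −0.01, Necab2 also at −0.01, and the other 8 genes lay between −0.33 (Map3k15) and 0.46 (Bok). Genes common to pyramidal neurons, 5 in number, had a median of 0.23 as well, with 4 positive and 1 negative. The log2 difference was 0.37 for Nrgn, 0.23 for Neurod2, 0.23 for Neurod6, 0.11 for Camk2a and −0.15 for Slc17a7, the vesicular glutamate transporter of these cells. Centring used the median level of these 5 genes, which was that of Slc17a7 in every library, so the 4 positive genes did not set it. It added the reverse of the Slc17a7 difference to every gene, which put Pou3f1 at 0.056 and left the other members' signs as they were. Among 5 genes enriched in the ventral hippocampus the median was −0.35, with 1 positive and 4 negative. Htr2c, a serotonin receptor that the choroid plexus also expresses, was at −0.93, with 13.26 and 8.66 FPKM in LA and 14.86 and 30.47 FPKM in Ctrl.

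Relatives of the members were measured for comparison, and 0 of the 8 tested passed the limma threshold or had an unadjusted p under 0.05. Cisd2, mutated in the second form of Wolfram syndrome, had a log2 difference of −0.10. Man1a2, the closest relative of Man1a, was at −0.07, Man1b1 at −0.18 and Man1c1 at −0.18. Pou3f2 and Pou3f3, the brain POU factors related to Pou3f1, were at 0.27 and 0.31, and Mpped2 was at 0.29. Pou3f4 and Spink2 were under the filter on low values.

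Markers of other cells differed between libraries as well, some lists with the groups and others not. Both LA libraries lay below both Ctrl libraries for 21.0% of all genes tested, and above them for 17.6%. All 10 markers of the leptomeninges, the membranes on the brain surface, were lower in both LA libraries, 5 of them past the threshold, and their summed FPKM was 35.8 and 38.4 in LA, against 184.8 and 230.7 in Ctrl. The 5 were Fmod (log2 difference −2.54), Slc6a20a (−2.50), Igf2 (−2.48), Slc13a4 (−2.46) and Aldh1a2 (−2.13). All 6 endothelial markers tested were negative, with a median of −0.72, 0 past the threshold, 4 at an unadjusted p under 0.05 and both LA libraries below both Ctrl libraries for 5, and the 7 listed summed to 12.9 and 12.4 FPKM in LA, against 20.2 and 29.4 FPKM in Ctrl. Of 6 markers of the neighbouring cortex tested, 5 were negative, with a median of −0.23, 0 past the threshold and 1 at an unadjusted p under 0.05. Both LA libraries lay below both Ctrl libraries for 1 of the 6. The 7 listed summed to 67.6 and 69.4 FPKM in LA, against 82.3 and 75.7 FPKM in Ctrl. All 8 myelin markers were higher in both LA libraries (summed FPKM 3392 and 4189 in LA, 2189 and 1912 in Ctrl), with 0 past the threshold and 8 at an unadjusted p under 0.05. The 8 microglial markers were all positive, with 0 past the threshold and 3 at an unadjusted p under 0.05. Both LA libraries lay above both Ctrl libraries for 5 of the 8, and the sums were 322.1 and 320.6 in LA and 239.4 and 227.6 in Ctrl. Choroid plexus markers stood apart in Ctrl replicate 3, with a summed FPKM of 133.2 and 163.6 in LA, against 73.6 in Ctrl replicate 2 and 8900 in Ctrl replicate 3. Both LA libraries lay below both Ctrl libraries for 2 of these 8 markers. No gene of these 6 lists was listed at 0 in any library. In Ctrl replicate 3, the library rich in choroid plexus transcripts, Man1a had its highest value, and the other 5 CA1 markers had their second lowest. The part of these cells in the values of the members was not tested.

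The 5 genes whose pattern over the 4 libraries was nearest to the mean pattern of the members were sought among the 9698 genes averaging 5 FPKM or more, by the Euclidean distance between profiles centred on their own means. They were Tbr1 (distance 0.022), Ppp2r5b (0.027), Susd4 (0.029), Pold4 (0.030) and Atp6v0a1 (0.030). The median distance was 0.368, but the nearest of so many genes must lie well below it, so this shows no special likeness. Not all members shared the mean pattern. Spink8 deviated by 0.37 in LA replicate 1 and −0.40 in Ctrl replicate 2, where the mean pattern was −0.14 and 0.14. Tbr1, a transcription factor of glutamatergic cortical neurons, had 11.04 and 12.36 FPKM in LA and 13.47 and 11.74 FPKM in Ctrl, with the highest value in Ctrl replicate 2 and the lowest in LA replicate 1, as in the 4 members that shared an order. The profiles rest on the same 4 libraries as the members and on no others.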

How the data were processed

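Messenger RNA of 2 LA and 2 Ctrl hippocampus libraries was analysed. The authors deposited 1 table of FPKM values with a column per library, and each column was mapped by its name. TopHat2, Cufflinks and the build GRCm38 appear in the processing notes of the submitters, and tool versions and the annotation behind the FPKM were not given in the sources used here. Dates stood in place of 11 symbols, which were recovered from the gene numbers. The paper given for the series describes human adipose stem cells, not these libraries.

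A pseudocount of 1 FPKM was added and log2 taken, which understates changes of low genes. Genes averaging 1 FPKM or more were kept (13518 of 19230), and all were fitted together with limma 3.58.1 in R 4.3.3 (lmFit, eBayes with a trend), 2 libraries against 2, with two-sided p-values adjusted by Benjamini-Hochberg over all genes tested and a threshold of 0.05. The procedure was tested on simulated data. Intervals are unadjusted at 95%. Fragment numbers were inferred from the smallest FPKM steps within a preset window, which bounded the depth, so they are estimates. Positions came from GENCODE on GRCm38 and promoters from RefSeq on GRCm38.p6.

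The members and the marker lists were chosen with earlier results of these data known. A gene of the list of other CA1-enriched genes is not reported here, and the counts for that list leave it out. By the rule for named genes, the members were named, any gene of the pyramidal, ventral and relatives lists could be, and so could up to 2 of highest mean from each other list, listed genes past the threshold and the 5 nearest in pattern. Within the lists where any gene could be named, the examples were picked with their values known. The alternatives were each library left out, centring on pan-pyramidal genes, median-ratio and quantile scaling, a filter at 5 FPKM or none, a pseudocount of 0.1 or 0.5, and limma's robust or trend-free variance. The centring used the median level of the pan-pyramidal genes, which was that of Slc17a7 in every library.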

Additional observations from a re-analysis of the deposited data

How the results depend on the processing

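Over the 6 members, 73 of 78 alternative values kept the direction and the side of the threshold, and 5 turned in sign without passing it. Many of the 78 could not turn. With another filter, or with limma's robust or trend-free variance, the differences equalled those of the main fit by construction, and only their errors and p-values could change. Those that turned were Pou3f1 at 0.056 with centring on pan-pyramidal genes, and Wfs1 at 0.011 and Fibcd1 at 0.027 without Ctrl replicate 2. Without LA replicate 1, Fibcd1 at 0.19 and Pou3f1 at 0.038 turned as well. The centring rested in every library on the level of Slc17a7, the middle one of the listed genes. It added the reverse of the Slc17a7 difference to every gene and put the median of all genes at 0.14, against −0.01 before. With each library left out, the log2 difference ranged from −0.59 to 0.19 for Fibcd1, −0.50 to 0.011 for Wfs1, −0.23 to 0.038 for Pou3f1, −0.46 to −0.12 for Mpped1, −0.34 to −0.14 for Man1a and 0.20 to 0.60 for Spink8. The median over the members ranged from −0.31 to 0.0048, the last without Ctrl replicate 2. The lowest adjusted p of a member was 0.248, without LA replicate 1, against 0.690 in the fit reported. Genes past the threshold numbered 19, and 0 of 19080 without a filter (1333 at an unadjusted p under 0.05), 93 with centring on pan-pyramidal genes (52 higher, 41 lower), 40 with robust estimation, and 2 to 227 with a library left out (36 higher and 191 lower without Ctrl replicate 2, 16 and 62 without Ctrl replicate 3, 119 and 58 without LA replicate 1, 0 and 2 without LA replicate 2). The cause was not tested. A group left with 1 library was assumed to vary like the other. No paired analysis was possible because LA and Ctrl share 1 replicate number, 2, and nothing says that it marks a shared animal or batch.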
